A study of Mus musculus with 2 samples.

Results

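WNT ligands, their receptors and the secreted proteins that modulate them were followed in the embryonic mouse ureter after conditional deletion of Gata6. The genes were chosen by their names on the array: every gene spelled Wnt, Fzd, Rspo, Sfrp 1 to 5, Dkk 1 to 4 or Lgr 4 to 6 with its number, and Wif1, Frzb, Lrp5, Lrp6, Ror1, Ror2 and Ryk. This gave 51 genes on 62 probes, out of 29875 genes on 39429 probes. Of the 51 genes, 41 were bright enough to be tested, among 19801 genes tested in all. The rule uses names only, but it was set with earlier results of these data known.

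Ureters came from NMRI embryos at E14.5, and 4 RNAs were compared in pairs on 2 two-colour arrays. The Gata6cKO embryos were Tbx18(cre/+);Gata6(fl/fl), with cre recombinase driven from the Tbx18 locus, which is active in the mesenchyme around the ureteric epithelium. The controls were Gata6(fl/?), so that each carried at least 1 floxed copy and, per the labels, no cre. Effects of losing Gata6, of cre itself and of the altered Tbx18 copy cannot be told apart. Both RNAs of the male array (replicate 1) came from males, with control in Cy3 and Gata6cKO in Cy5. Both RNAs of the female array (replicate 2) came from females, with control in Cy5 and Gata6cKO in Cy3, so sex and dye orientation cannot be told apart. Whether an RNA came from 1 embryo or from several is not stated in the labels. The p-values and moderated SEs combine a gene's spread between the 2 arrays with a prior spread estimated from all genes tested. The prior weighs most, with 11.9 degrees of freedom against 1, and both cover only these samples.

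WNT proteins are secreted, lipid-modified ligands that bind Frizzled receptors. With the co-receptors LRP5 and LRP6 they stabilise beta-catenin, which switches on target genes together with TCF and LEF factors, while ROR and RYK receptors carry other WNT responses. R-spondins bind LGR4, LGR5 and LGR6 and keep Frizzled receptors at the cell surface, which strengthens WNT signalling. SFRP proteins, FRZB and WIF1 bind WNT ligands outside the cell, and some DKK proteins, such as DKK1, block the LRP co-receptors. In the developing ureter, WNT ligands of the urothelium are known to signal to the surrounding mesenchyme and to support its differentiation into smooth muscle.

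Rspo1 and Rspo3, 3 WNT ligands, 3 secreted inhibitors and Lgr5 rose in the RNAs labelled Gata6cKO, while 2 other WNT ligands, Lgr4 and Sfrp2 fell. Of the 41 tested members, 9 were higher, which is 22% of them, against 2.2% of all genes tested. Another 4 were lower, or 9.76%, against 2.35% of all genes tested. The remaining 28 did not pass. In either direction, 13 members passed, or 31.7%, against 4.55% of all genes tested. The test was limma on the log2 ratio of Gata6cKO over control, with p-values adjusted by Benjamini-Hochberg over the 19801 genes and a threshold of 0.05. The median log2 ratio was 0.088 over the 41 members and -0.0019 over all genes tested. All 41 were well above background in both genotypes, so none entered the test through 1 genotype alone.

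**Figure D1:**
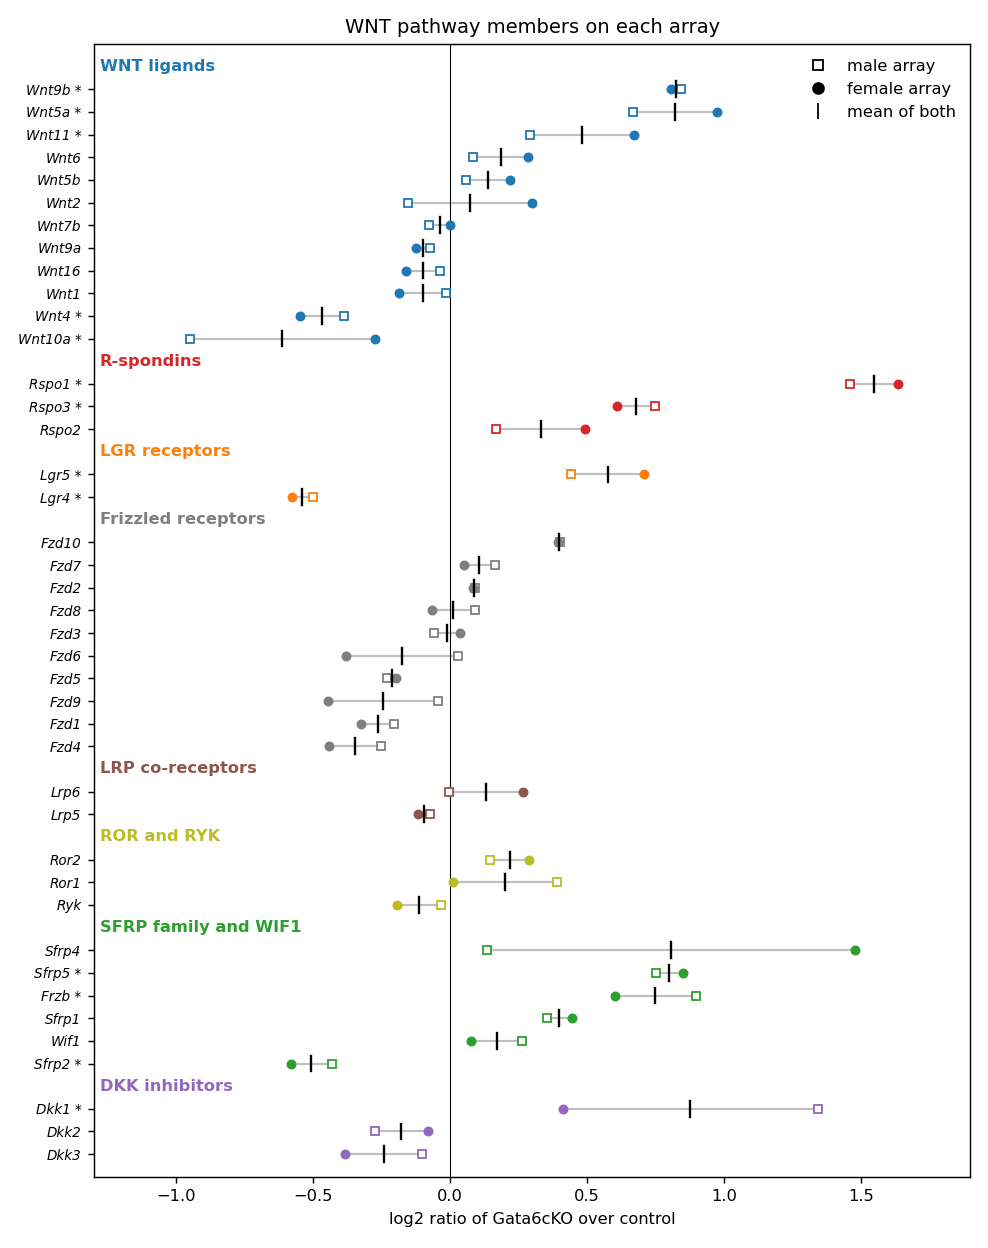
Log2 ratio of Gata6cKO over control (horizontal axis) for the 41 tested members, grouped by role. Open squares show the male array, filled circles the female array and black ticks their mean, and stars mark the 13 members with a limma adjusted p under 0.05. Rspo1 stands farthest to the right, with 1.46 for the male pair and 1.64 for the female pair, and the 10 Frizzled receptors lie between -0.35 and 0.40.

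Gata6 itself did not serve as a check of the labels. Its probe read 12510 in the male control, 22510 in the male Gata6cKO, 16360 in the female control and 22460 in the female Gata6cKO RNA, in units of normalised intensity, a linear brightness after correction of background and dye. Both Gata6cKO RNAs were thus brighter than both controls, by 0.65 ± 0.12 in log2 ratio (moderated SE over 2 arrays; limma adjusted p = 0.00612). No exon map placed the probe inside or outside the floxed part, and every direction given here rests on the labels. Median spot signals were 224 to 442 over local backgrounds of 23 to 85, and the scanner marked 67.2% to 68.5% of the spots of a channel as well above background. Precision is limited by there being 2 arrays. In these bulk samples, fewer cells of a type and less RNA per cell cannot be told apart.

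Among the R-spondins, Rspo1 showed the largest change of any member. Its normalised intensity was 414 in the male control and 1140 in the male Gata6cKO, and 249 in the female control and 776 in the female Gata6cKO RNA. Both Gata6cKO RNAs were far above both controls, and the genotypes did not overlap. The level was 2.93-fold higher, at a log2 ratio of 1.55 ± 0.11 (n = 2 arrays; limma adjusted p = 4.81e-06), and Rspo1 ranked 17 by p-value among all genes tested. Rspo3, a second R-spondin, read 4978 in the male control, 8352 in the male Gata6cKO, 5247 in the female control and 8003 in the female Gata6cKO RNA. The controls lay close together below the Gata6cKO RNAs, which also lay close together. Rspo3 was 1.6-fold higher (log2 0.68 ± 0.11; limma adjusted p = 0.00245).

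Rspo2 leaned the same way on both arrays but did not pass. It read 186 and 209 in the male control and Gata6cKO RNAs, and 140 and 198 in the female ones. The genotypes did not overlap, but the male Gata6cKO RNA was only a little above the male control. The log2 ratio was 0.33 ± 0.12 (limma adjusted p = 0.201). The call was gained with Agilent's processed signals, with the deposited series values and with a smaller normexp offset. Rspo4 was not well above background.

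The R-spondin receptors moved in opposite directions. Lgr4, the broadly expressed receptor of the family, read 792 in the male control, 560 in the male Gata6cKO, 892 in the female control and 598 in the female Gata6cKO RNA. Both Gata6cKO RNAs lay below both controls on each array. Lgr4 fell by 0.54 ± 0.11 in log2 ratio, which is 1.45-fold lower (n = 2 arrays; limma adjusted p = 0.0110). Lgr5, a receptor that is also a target of WNT signalling and a stem cell marker in several epithelia, read 226 and 307 in the male control and Gata6cKO RNAs, and 185 and 303 in the female ones. The Gata6cKO RNAs were nearly equal and above both controls. Lgr5 rose by 0.58 ± 0.12 on the log2 scale, 1.49-fold (limma adjusted p = 0.00997), and the call was lost under 5 of 11 other settings. Lgr6 was not well above background with either of its 2 probes.

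Only 1 of the 2 Lgr5 probes gave a signal above background. Probe A_55_P2126192, named by a RefSeq transcript, lies at chr10:114887403-114887462 (mm9, minus strand) and carries the values above. Probe A_52_P30169, named by an Ensembl transcript, lies at chr10:114900686-114900745 (mm9, minus strand) and read between 70.0 and 76.0 in the 4 RNAs. Whether both transcripts were present was not tested. The first 30 of the 60 bases of each probe are shown, since the call rests on the first one alone.
Lgr5 probe A_55_P2126192: catgtaaatacgtagtgcttgtaaatagat
Lgr5 probe A_52_P30169: acctctagtgcttatatagaaacttgtgtg

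Of the 19 WNT ligands on the array, 12 were tested, and 3 rose, 2 fell and 7 did not pass. Over all genes tested, 2.2% were higher and 2.35% were lower. Wnt9b, a ligand of the nephric duct and its epithelial derivatives, read 549 in the male control, 985 in the male Gata6cKO, 587 in the female control and 1027 in the female Gata6cKO RNA. The 2 arrays gave almost the same picture, with the Gata6cKO RNAs well above the controls. Wnt9b was 1.77-fold higher (log2 0.83 ± 0.11, n = 2 arrays; limma adjusted p = 0.000531). Wnt5a, known mainly for responses that bypass beta-catenin, read 2333 and 3711 in the male control and Gata6cKO RNAs, and 2014 and 3962 in the female ones. Its genotypes did not overlap either, and the female pair was the farther apart. Wnt5a was 1.77-fold higher (log2 0.82 ± 0.12; limma adjusted p = 0.000868).

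Wnt11, a ligand known from the tips of the ureteric bud in the kidney, rose by less. It read 2194 in the male control, 2683 in the male Gata6cKO, 1961 in the female control and 3127 in the female Gata6cKO RNA. The male pair was closer together than the female pair, at log2 ratios of 0.29 and 0.67. The mean was 0.48 ± 0.12 (1.4-fold; limma adjusted p = 0.0397). This call was lost under 6 of 11 other settings.

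Wnt10a and Wnt4 fell. Wnt10a, a ligand that acts through beta-catenin in ectodermal organs, read 629 in the male control, 326 in the male Gata6cKO, 428 in the female control and 354 in the female Gata6cKO RNA. The male control stood apart from the other RNAs, and the log2 ratio was -0.95 for the male pair and -0.28 for the female pair. The mean was -0.61 ± 0.14 (n = 2 arrays; limma adjusted p = 0.0264), and the call was lost under 5 of 11 other settings. Wnt4, a ligand needed for nephron formation that is also expressed in stroma, read 11720 and 8968 in the male control and Gata6cKO RNAs, and 9512 and 6504 in the female ones with its brighter probe. The male Gata6cKO RNA was only a little below the female control, and each Gata6cKO RNA was below the control on its own array. Wnt4 fell by 0.47 ± 0.11 (limma adjusted p = 0.0295), and this call was lost under 6 of 11 other settings.

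The second Wnt4 probe gave a smaller change. It read 805 and 751 in the male control and Gata6cKO RNAs, and 934 and 698 in the female ones. Its log2 ratios were -0.10 and -0.42, against -0.39 and -0.55 with the brighter probe, and with the mean of both probes Wnt4 no longer passed. The brighter probe, A_66_P139703, lies at chr4:136855342-136855401 (mm9, plus strand). The dimmer one, A_51_P130475, maps to chr4:136851690-136852258 (mm9, plus strand), so its 60 bases span 569 genomic bases and must cross an intron. The first 30 bases of both probes are shown because the 2 places in the gene gave different sizes.
Wnt4 probe A_66_P139703: tatgaggctccttggcattgtgacatcccc
Wnt4 probe A_51_P130475: tcttcacaacaacgaggctggcaggaaggc

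Among the 7 ligands that did not pass, mean log2 ratios were within 0.18 of 0. They were 0.18 for Wnt6, 0.14 for Wnt5b, 0.073 for Wnt2, -0.038 for Wnt7b, -0.098 for Wnt9a, -0.099 for Wnt16 and -0.10 for Wnt1, each with a moderated SE of 0.11 to 0.13. Wnt7b, a ligand of the urothelium, read 910 and 864 in the male control and Gata6cKO RNAs and 975 and 975 in the female ones. Its genotypes overlapped. Wnt2 had opposite signs on the arrays. Wnt1 rests on 1 probe, since its second one was not well above background, and the second probe of Wnt16 gave -0.20. The ligands Wnt2b, Wnt3, Wnt3a, Wnt7a, Wnt8a, Wnt8b and Wnt10b were not well above background in either genotype.

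**Figure D2:**
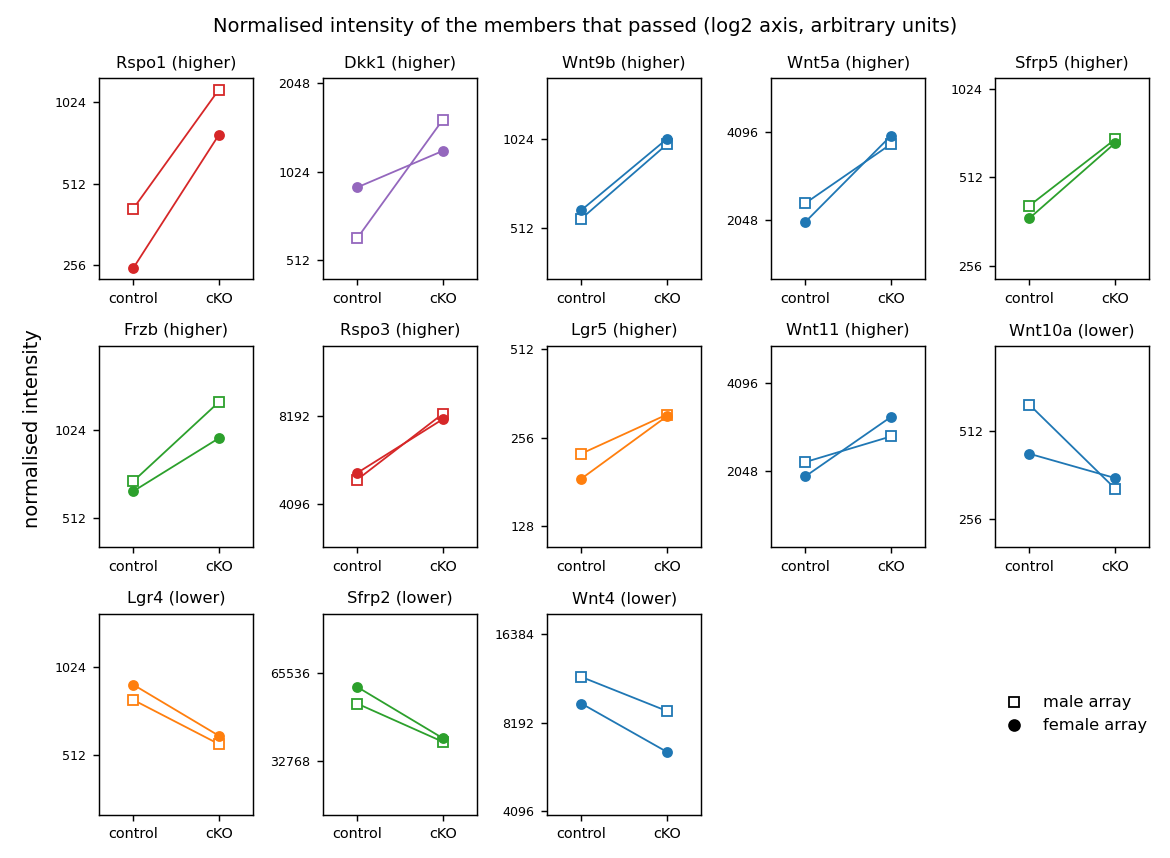
Normalised intensity (vertical axis, log2 scale, arbitrary units that are not comparable between panels) of the 13 members that passed, in control and Gata6cKO (cKO) RNAs. Lines join the RNAs of an array, with open squares for the male and filled circles for the female array. In every panel both Gata6cKO points lie on the same side of both control points, as for Rspo1, with 1140 and 776 against 414 and 249. The members shown were called from these same RNAs.

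None of the 15 tested Frizzled, LRP, ROR and RYK receptors passed by limma at an adjusted p under 0.05, and 3 of them had an unadjusted p under 0.05. Over all genes tested 4.55% passed, and none among 15 genes is near that share. The largest differences were seen for Fzd10 and Fzd4. Fzd10 read 838 in the male control, 1107 in the male Gata6cKO, 815 in the female control and 1070 in the female Gata6cKO RNA. Both arrays gave nearly the same ratio, and the genotypes did not overlap. Its log2 ratio of 0.40 ± 0.11 (n = 2 arrays) missed the threshold (limma adjusted p = 0.0629), and Fzd10 passed with the mean of the kept probes and with normexp offset 10. Fzd10 has only 1 kept probe, so with the mean of the kept probes its ratio stayed the same and only its error was smaller. Fzd4 read 7982 and 6699 in the male control and Gata6cKO RNAs, and 7667 and 5646 in the female ones. The Gata6cKO RNAs were below both controls, at a log2 ratio of -0.35 ± 0.11 (limma adjusted p = 0.134).

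The other Frizzled receptors had log2 ratios from -0.26 for Fzd1 to 0.11 for Fzd7, and Fzd3, Fzd6 and Fzd8 had opposite signs on the arrays. Fzd8 lies 1.87 Mb from the Gata6 probe on the same chromosome (mm9 probe positions), and its log2 ratio was 0.012 ± 0.11. Of the co-receptors, Lrp6 had 0.13 and Lrp5 -0.096. Ror2, a receptor for Wnt5a, had 0.22, Ror1 had 0.20 and Ryk had -0.11. The receptors with a second kept probe gave 0.050 for Fzd5 against -0.21 with its brighter probe, 0.055 for Fzd7, 0.0050 for Fzd2, 0.012 for Ror1 and 0.011 for Lrp6. For Fzd5 the 2 probes thus had opposite signs, and both were dim, at 116 to 160.

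Among the inhibitors that bind WNT ligands, Sfrp5 and Frzb rose and Sfrp2 fell. Sfrp5 read 410 in the male control, 691 in the male Gata6cKO, 372 in the female control and 670 in the female Gata6cKO RNA. The genotypes were well apart and the arrays alike. Sfrp5 was 1.74-fold higher (log2 0.80 ± 0.11, n = 2 arrays; limma adjusted p = 0.00067). Frzb, also called SFRP3, read 686 and 1278 in the male control and Gata6cKO RNAs, and 634 and 962 in the female ones. Both Gata6cKO RNAs were above both controls. Frzb was 1.68-fold higher (log2 0.75 ± 0.12; limma adjusted p = 0.00171), and its call was lost without the replicate block.

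Sfrp2, in contrast, read 51470 in the male control, 38140 in the male Gata6cKO, 58660 in the female control and 39220 in the female Gata6cKO RNA. The Gata6cKO RNAs were nearly equal and lay below both controls. Sfrp2 fell by 0.51 ± 0.11 in log2 ratio, which is 1.42-fold lower (n = 2 arrays; limma adjusted p = 0.0175), and the call was lost under 5 of 11 other settings. Sfrp1 read 4276 and 5461 in the male control and Gata6cKO RNAs, and 4818 and 6555 in the female ones. Its genotypes did not overlap, but with a log2 ratio of 0.40 ± 0.11 it did not pass (limma adjusted p = 0.0641). Wif1 had a log2 ratio of 0.17 ± 0.11 and overlapping genotypes.

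The arrays disagreed most on Sfrp4. It read 2527 in the male control, 2778 in the male Gata6cKO, 980 in the female control and 2733 in the female Gata6cKO RNA. The female control stood far below the other RNAs, which lay close together. The log2 ratio was 0.14 for the male pair and 1.48 for the female pair, and the mean of 0.81 ± 0.22 did not pass (n = 2 arrays; limma adjusted p = 0.0542). It passed under 4 of 11 other settings.

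Of the DKK genes, Dkk1, itself a known target of beta-catenin, rose. It read 608 in the male control, 1540 in the male Gata6cKO, 905 in the female control and 1205 in the female Gata6cKO RNA. Both Gata6cKO RNAs were above both controls, but the male pair was much farther apart, with log2 ratios of 1.34 and 0.41. The mean was 0.88 ± 0.17 (1.84-fold, n = 2 arrays; limma adjusted p = 0.00742), and the call was lost under 4 of 11 other settings. Dkk2 and Dkk3 had log2 ratios of -0.18 and -0.24 and did not pass. Dkk4 was not well above background.

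Sequence directly before the start site was at hand in RefSeq (GRCm38.p6) for 9 of the 13 members that passed and for 26 of the 41 tested. The 250 bases before the annotated start were searched on both strands for a GATA factor motif (spelled AGATAA with TGATAA as its variant, or AGATAG with TGATAG as its variant) and for a TCF and LEF motif (spelled CTTTGAA with CTTTGAT as its variant, or CTTTGTA with CTTTGTT as its variant). A GATA motif stood before 3 of the 9 members that passed, Sfrp5, Frzb and 1 of the 2 starts of Wnt11, and before 2 of the 17 that did not. Over all 32851 promoter windows of this length, some genes having several, 26.5% held one. A TCF and LEF motif stood before 2 of the 9, Dkk1 and the other start of Wnt11, and before 2 of the 17, against 14.8% of all windows. Neither motif was found before Rspo1, Lgr4, Sfrp2, Wnt9b or Wnt4. These are matches of letters, and no binding was measured.

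The windows of 4 members that rose are shown, 5′ to 3′ on the gene's strand, with motif matches in capitals and no match overlapping another. Rspo1 (chr4:124986180-124986429, plus strand) had the largest rise and no match. Sfrp5 (chr19:42202253-42202502, minus strand) had 2 GATA motifs, which begin 236 and 180 bases before the start. Frzb (chr2:80447397-80447646, minus strand) had 1, which begins 132 bases before the start. Dkk1 (chr19:30549497-30549746, minus strand) had 2 TCF and LEF motifs, which begin 117 and 98 bases before the start.
Rspo1: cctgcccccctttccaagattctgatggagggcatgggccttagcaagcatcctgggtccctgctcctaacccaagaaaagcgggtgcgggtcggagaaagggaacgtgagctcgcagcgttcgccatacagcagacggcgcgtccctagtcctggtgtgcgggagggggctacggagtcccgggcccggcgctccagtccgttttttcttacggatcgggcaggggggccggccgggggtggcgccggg
Sfrp5: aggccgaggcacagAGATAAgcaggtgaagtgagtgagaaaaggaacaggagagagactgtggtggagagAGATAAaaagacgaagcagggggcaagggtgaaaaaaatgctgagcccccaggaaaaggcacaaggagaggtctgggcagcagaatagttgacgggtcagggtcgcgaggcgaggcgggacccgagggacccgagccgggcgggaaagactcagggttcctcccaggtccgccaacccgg
Frzb: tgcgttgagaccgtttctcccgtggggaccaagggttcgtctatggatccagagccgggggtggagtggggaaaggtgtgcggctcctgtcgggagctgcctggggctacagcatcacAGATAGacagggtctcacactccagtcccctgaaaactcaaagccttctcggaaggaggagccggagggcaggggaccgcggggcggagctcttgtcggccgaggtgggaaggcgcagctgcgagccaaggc
Dkk1: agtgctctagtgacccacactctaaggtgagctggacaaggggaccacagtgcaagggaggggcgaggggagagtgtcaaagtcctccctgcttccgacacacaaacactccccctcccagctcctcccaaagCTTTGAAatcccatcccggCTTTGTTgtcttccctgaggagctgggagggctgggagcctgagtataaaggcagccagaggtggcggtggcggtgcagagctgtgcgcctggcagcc

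Other pathway genes were read from the same fit. Of 38 tested genes for WNT secretion, surface modulation, cytoplasmic signalling, nuclear factors and targets, 4 passed. This is a larger share than the 4.55% of all genes tested in either direction. Of the 38, 1 rose, against 2.2% of all genes tested, and 3 fell, against 2.35%. Another 5 had an unadjusted p under 0.05 only, and the median log2 ratio was 0.013. Sp5, a transcription factor gene that WNT signalling switches on directly, read 280 and 527 in the male control and Gata6cKO RNAs, and 290 and 470 in the female ones. Its genotypes were well apart, and it was 1.75-fold higher (log2 0.81 ± 0.11, n = 2 arrays; limma adjusted p = 0.0008). Axin2, the widely used target of beta-catenin, read 506 and 629 in the male pair and 568 and 631 in the female pair, with the Gata6cKO RNA second. It leaned the same way at 0.23 ± 0.11 without passing (limma adjusted p = 0.487).

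Lef1, a nuclear partner of beta-catenin, fell by 0.58 ± 0.12 in log2 ratio (limma adjusted p = 0.0113). It read 3569 and 2681 in the male control and Gata6cKO RNAs, and 5124 and 3048 in the female ones. The female control was the highest of the 4. Cthrc1, a secreted protein that favours binding of WNT to ROR2, read 4564 and 2552 in the male pair and 3143 and 2309 in the female pair, and fell by 0.64 ± 0.12 (limma adjusted p = 0.00690). Tpbg, a surface protein that limits WNT signalling through LRP6, read 6644 and 5495 in the male pair and 9529 and 4904 in the female pair, and fell by 0.62 ± 0.15 (limma adjusted p = 0.0264). For both, the Gata6cKO RNAs lay below both controls, and Tpbg differed more on the female array. Lef1, Cthrc1 and Tpbg each lost their call under 5 of 11 other settings. Wls and Porcn, needed to release and to acylate WNT ligands, had log2 ratios of -0.053 and 0.041, and Ctnnb1, the gene for beta-catenin, had -0.11, and none of the 3 passed. Sost, a secreted LRP inhibitor, was not well above background.

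The 2 arrays gave the same sign for 36 of the 41 members, or 87.8%, and for 48.8% of all genes tested. Across the members, the log2 ratios of the male and female arrays had a Pearson r of 0.757, and across all 19801 genes it was 0.412. The median gap between the arrays was 0.163 for the members and 0.159 for all genes, so the arrays lay no closer together for the members. These are correlations across genes of the same 4 RNAs. The intensities of the 2 Gata6cKO RNAs lay all above or all below both controls for 30 of the 41 members, against 33.5% of all genes tested. This held for each of the 13 members that passed, but they were called from the same 4 RNAs, so it is no separate evidence. The median absolute log2 ratio was 0.68 over those 13 members and 0.62 over the 901 genes of the whole array that passed. Spots of a member's probe on 1 array had a median SD of 0.043 in log2 ratio and a highest SD of 0.137, which covers technical spread within an array only.

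**Figure D3:**
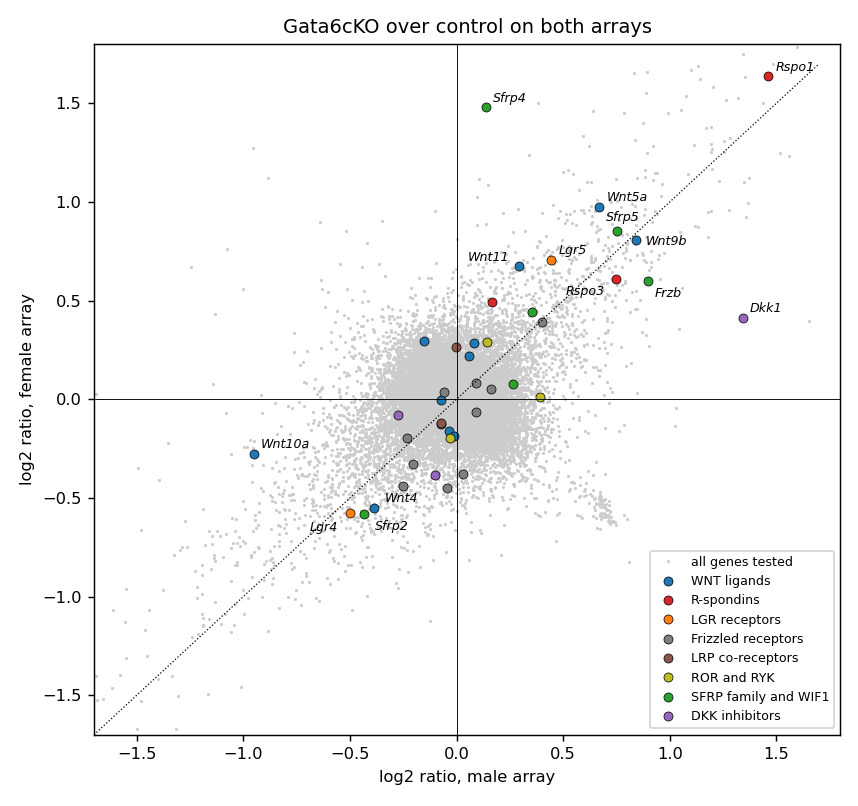
Log2 ratio of Gata6cKO over control on the male array (horizontal axis) and the female array (vertical axis), with the 19801 genes tested in grey and the 41 members coloured by role; the dotted line marks equal ratios and 17 genes lie outside the axes. The 13 members that passed and Sfrp4 are named: Sfrp4 lies high above the line at 0.14 and 1.48, and Dkk1 far below it at 1.34 and 0.41.

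Markers of several cell types differed between the same RNAs. Over all genes tested, 2.2% were higher and 2.35% were lower. Of 12 markers of neurons and glia 9 were higher and none lower, led by Nefm (log2 1.83), Nefl (1.69) and Tubb3 (1.42), and their summed intensity was 89080 to 98760 in the controls and 108400 to 117100 in the Gata6cKO RNAs. Of 14 urothelial markers 7 were lower and none higher, led by Upk1b (log2 -1.98), Upk1a (-1.54) and Upk2 (-1.40), with sums of 219600 to 231800 and 167900 to 186600. The urothelial markers that did not pass had log2 ratios from -0.41 for Elf3 to 0.057 for Shh. Among them, Trp63 at -0.15, Krt18 at -0.11 and Shh had opposite signs on the arrays. Of 8 smooth muscle markers 4 were lower and none higher, led by Cnn1 (log2 -1.51), Myocd (-1.33) and Actg2 (-1.09), with sums of 36920 to 47150 and 28730 to 35200. The smooth muscle markers that did not pass included Des at a log2 ratio of 0.28, with the same sign on both arrays, Smtn at -0.15 and Tagln at -0.15, with opposite signs on the arrays. Such sums are led by the brightest probes. The median log2 ratio was 0.93 for neurons and glia, -0.49 for urothelium and -0.55 for smooth muscle.

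Markers of adjoining organs were also measured, and their counts stand against the same 2.2% higher and 2.35% lower of all genes tested. Of 9 tested markers of nephrons and kidney stroma, Cited1 and Lhx1 were higher and none was lower. Six2 and Eya1 were higher in the male and lower in the female Gata6cKO RNA than in the control on the same array. The list's sum rose from 41670 in the male control to 57390 in the male Gata6cKO RNA. On the female array it fell from 49380 to 47170. Of 5 tested skeletal muscle markers Myh3, Myl1 and Myog were higher and none lower, and Ckm was not above background. The sums of this list were 2429 to 3725 in controls and 3790 to 6361 in Gata6cKO RNAs. Of 4 tested mesothelial markers Wt1 was higher and Msln and Upk3b were lower, with sums of 8565 to 10860 and 13050 to 14620, and Lrrn4 was not above background. Of 5 erythroid markers Slc4a1, Ahsp and Alas2 were lower and none higher, with sums of 22740 to 25920 and 17250 to 18360. Of 5 endothelial markers Tek was lower and none higher, with sums of 21300 to 22700 and 19950 to 20370. Median log2 ratios were 0.22 for the nephron and stroma list, 0.79 for skeletal muscle, -0.68 for mesothelium, -0.46 for erythroid and -0.11 for endothelial markers.

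By limma at an adjusted p under 0.05, none of 10 markers of the ureteric mesenchyme, none of 7 tested markers of gonads and genital ducts and none of 5 macrophage markers passed, with 3, 2 and 1 of them at an unadjusted p under 0.05. Over all genes tested 4.55% passed, and none passing in lists this short is near that share. Sums in controls and in Gata6cKO RNAs were 166100 to 191500 and 182600 to 198200 for mesenchyme, higher in Gata6cKO on both arrays. For gonads and ducts, control and Gata6cKO sums were 20260 and 19970 on the male array and 20750 and 21200 on the female array. For macrophages they were 11320 and 10670 on the male array and 9211 and 10990 on the female array. Both of these lists thus moved in opposite directions on the arrays. Among the markers of the 3 lists were Foxf1 at a log2 ratio of -0.42, Tshz3 at 0.36 and Bmp4 at 0.28 for mesenchyme. Emx2 had 0.37 in the gonad list and C1qa 0.31 in the macrophage list. The medians were 0.021 for mesenchyme, 0.053 for gonads and ducts and 0.071 for macrophages. Amh and the kidney tubule marker Umod were not above background. The part of these cell types in the rise or fall of the WNT genes was not tested.

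**Figure D4:**
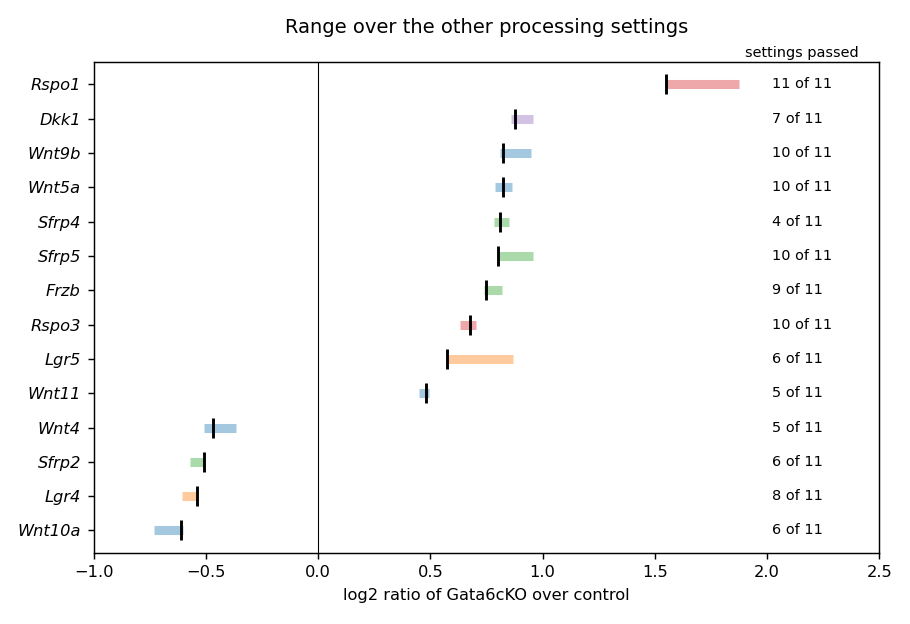
Range of the log2 ratio of Gata6cKO over control (horizontal axis) over 11 other processing settings for the 13 members that passed and Sfrp4. Black ticks mark the reported value, bars span the lowest to the highest value under the other settings, and the numbers at the right count the settings in which the member passed. No bar crosses 0, though several settings leave the ratio unchanged and could not move it. Rspo1 passed in 11 of 11 settings.

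Directions of the 13 members that passed were the same under all 11 other settings, but not every setting could turn them. The ratio could change only with median centring, Agilent's processed signals, the series values, the other offset and, for Wnt4, the mean of its probes. The remaining settings kept the ratio and changed only its error or the genes tested. Rspo1 passed under all 11, with log2 ratios from 1.55 to 1.88. Rspo3, Wnt5a, Wnt9b and Sfrp5 lost their call only with median centring in place of loess, at adjusted p-values of 0.458, 0.109, 0.0854 and 0.0951. Frzb lost it there and without the replicate block. Of the other members that rose, Dkk1 passed in 7 of the 11 settings, Lgr5 in 6 and Wnt11 in 5. Of those that fell, Lgr4 passed in 8, Sfrp2 and Wnt10a in 6 and Wnt4 in 5.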

How the data were processed

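Total RNA of dissected E14.5 ureters, 150 ng per labelling, was measured on 2 two-colour Agilent arrays that share a slide and a scan, per the file headers. The deposited scanner files give, per the file headers, the uncorrected mean intensity of each spot, and the median of the background around it, in both dyes. They also hold processed intensities and a log10 ratio of Cy5 over Cy3, made by the authors with Agilent Feature Extraction 10.7.3.1, per the submitters' processing notes. The deposited series values give a score per probe and array. Set against the processed intensities, this score was a linear fold between Gata6cKO and control with a minus sign for lower values, with 1 as the median of both columns, 0 values between -1 and 1, and a Pearson r of 0.985 and 0.98 after conversion to log2. How spots were summarised for it is not given in the sources used here. There were 0 unused sample columns.

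Raw intensities were corrected with normexp (offset 50) and loess in limma 3.58.1 (R 4.3.3, data.table (1.17.8), statmod 1.5.0), with control and outlier spots at weight 0. Probes entered the test if 1 genotype had 3 or more of 4 spots well above background on both arrays, as did 26200 of 39429 probes. The brightest kept probe stood for a gene, and 0 spots of member probes were saturated. Intensities in the text are on a linear scale after quantile normalisation of the average signals between arrays, and include the offset. The log2 ratio per array, signed so that Gata6cKO is the numerator, went into lmFit and eBayes, which pairs the RNAs that shared an array. The fit had 1 residual and 11.9 prior degrees of freedom (prior SD 0.162). P-values are two-sided. The fit was also run on simulated data, where a low share of false calls was required only with the prior known. With the prior estimated from 1 residual degree of freedom, as in the reported fit, no such requirement was set.

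The file headers give probe positions on mm9. Symbols were updated for 1602 probes through a RefSeq gene table (GRCm38.p6, names only). Promoter sequences come from a RefSeq table of the same build. Motifs and figures were made in Python 3.11.15 (pandas 2.3.3, matplotlib 3.10.9).

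The members and all gene lists were chosen with earlier results of these data known. Of the members, 4-RNA values are given for those that passed and for those with an absolute log2 ratio of at least 0.3 and the same sign on both arrays. From the other pathway genes, those that passed were named with Axin2, Ctnnb1, Wls and Porcn, and from each marker list its counts and up to 3 genes with the smallest p. Wnt7b, Six2, Eya1, Des, Smtn, Tagln, Elf3, Shh, Trp63 and Krt18 were named after their values were seen. The settings tried were median centring, Agilent's processed signals, 2 other filters on dim probes, the mean of a gene's probes, an intensity trend, 2 fits of separate channels, the series values, another offset and a fixed prior.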

Additional observations from a re-analysis of the deposited data

Results flagged for a closer look

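For 5 members the male and the female array gave opposite signs of the log2 ratio of Gata6cKO over control. The female minus the male value was -0.408 for Fzd6, which had 0.029 on the male array and -0.38 on the female one. It was 0.4493 for Wnt2, with -0.15 and 0.30 in the same order. It was 0.2704 for Lrp6, with -0.0037 and 0.27, and its second probe gave 0.093 and -0.071. It was -0.157 for Fzd8, with 0.091 and -0.066, and 0.0944 for Fzd3, with -0.059 and 0.035. None of these differences was tested, since each sex was measured on 1 array and the dyes were exchanged between the arrays.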

How the results depend on the processing

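The number of genes called over the whole array was 901. It was 190 with median centring, 431 with no replicate block, 542 with separate channels and the intraspot correlation, 483 when dim probes were not filtered, 1467 with the deposited series values and 474 with the prior degrees of freedom set to 6, a setting chosen after seeing the data and a simulation. Members called higher numbered 9 and fell to 1 with median centring (9 at an unadjusted p under 0.05 by limma), and were 6 to 12 under the other 10 settings. Members called lower numbered 4, and were 0 with median centring, 0 with no replicate block and 0 with the prior degrees of freedom set to 6, by limma with 4, 5 and 6 at an unadjusted p under 0.05. They were 1 when dim probes were not filtered and 1 with the intraspot correlation. The other pathway genes called numbered 4, and were 0 with median centring (4 at an unadjusted p under 0.05 by limma) and 1 each with no filter, with no replicate block, with the intraspot correlation and with the fixed prior. The arrays pair the RNAs by hybridisation. Without that block, in a fit of separate channels that also held a dye term, 6 of the 13 member calls were shared. That fit thus changed more than the pairing. Fzd8 turned to -0.0076 with the series values. Without the filter the fit tests 29875 genes in place of 19801; otherwise the cause was not tested. The share of higher among all calls was 45.8% to 52.9%, and the median of all genes stayed between -0.0267 and 0.0009. Leaving out an array leaves no test, and its values are the ratios per array. Signal over background limits what can be said of the 10 dim members.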

Other observations

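The share of genes with the same sign on both arrays differed with brightness. With the genes tested split by mean intensity into 4 bins of equal size, 56.9% of the dimmest bin had the same sign on both arrays, with a Pearson r of 0.597 across genes. In the brightest bin, 37.7% had the same sign, with an r of -0.0467. Over all genes tested the share was 48.8%. All 6 members in the brightest bin had the same sign on both arrays, as did 4 of the 6 in the dimmest bin. No test was made of these shares.

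Several WNT ligand genes lie side by side in the RefSeq table (GRCm38.p6), with 0 protein-coding genes between them. Wnt9b was 1.77-fold higher beside Wnt3, which was not well above background. Wnt10a, which fell by 0.61 in log2 ratio, lies beside Wnt6 at a log2 ratio of 0.18. Wnt1, at -0.10, lies beside Wnt10b, and Wnt9a, at -0.098, beside Wnt3a, and neither Wnt10b nor Wnt3a was well above background. Whether the neighbours of a pair differ was not tested.

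The 14 member probes that were not above background read between 62.4 and 112 in normalised intensity in the 4 RNAs, offset included.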
